A study of Drosophila melanogaster with 2 samples.

Results

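Intronic peaks near a gene start were Rfx-eGFP binding peaks whose summit lay more than 500 and up to 2000 bp from the nearest transcription start site (TSS), inside a gene body and in no annotated exon. They numbered 1305 of 9247 peaks on the chromosome arms, 14.1% of the set called from both replicates. They lay in 907 host genes, with 1 host taken per peak. Each summit counted as 1 peak, though summits could share an interval, such as the 2 of CG9663 that lay 207 bp apart. Another summit lay within 500 bp of 175 of the 1305 (13.4%). TSSs were the 5′ ends of all annotated transcripts of any gene other than a transposable element, so that an alternative start inside a gene counted as a start. Apart from being in the authors' thresholded set, no measured value of a peak entered this choice.

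The data came from whole Drosophila melanogaster embryos, 0 to 24 h old, of the strain Rfx-GFP, a transgenic line with an insertion that targets Rfx and that makes an Rfx-eGFP fusion protein. Chromatin was sheared by sonication to 200 to 800 bp and precipitated with an antibody against GFP, while the labels' antibody entry reads Rfx. There was 1 group of 2 biological replicates, both of that strain, so no condition was contrasted, and the control library was not analysed here. Because whole embryos mix all cell types, strong binding in few cells and weak binding in many cannot be told apart. Coordinates are those of dm6 and count from 1. With no read counts in the files, sequencing depth is unknown for both replicates.

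RFX proteins are transcription factors known to activate genes for building cilia through the X-box, a palindromic element, and Rfx is their fly member studied here. In the fly embryo its known place of action is the ciliated sensory neuron. Introns close to a start often hold enhancers, and in a gene with several starts the intron of a long transcript can also hold the promoter region of a shorter one.

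The strongest members are shown first, since they had the highest signal of the class among those the conservative set also held. Each line gives 201 bp centred on the summit, on the plus strand of the reference genome, for the 9 of the 12 strongest members whose sequences are given. Capitals mark ACAGTG on either strand, the 6-base word with the highest share at member summits relative to peak-free introns, and a line without capitals has no such match in this window.
CG11050, chr2L:6612616-6612816: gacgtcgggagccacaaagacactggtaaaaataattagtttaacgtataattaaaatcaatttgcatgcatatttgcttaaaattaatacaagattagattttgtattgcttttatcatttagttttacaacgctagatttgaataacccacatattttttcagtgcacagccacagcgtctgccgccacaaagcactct
CG32772, chrX:4910263-4910463: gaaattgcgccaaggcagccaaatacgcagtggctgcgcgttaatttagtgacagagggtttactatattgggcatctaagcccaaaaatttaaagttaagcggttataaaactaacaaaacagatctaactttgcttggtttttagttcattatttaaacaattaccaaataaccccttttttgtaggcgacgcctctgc
ph-p, chrX:2137259-2137459: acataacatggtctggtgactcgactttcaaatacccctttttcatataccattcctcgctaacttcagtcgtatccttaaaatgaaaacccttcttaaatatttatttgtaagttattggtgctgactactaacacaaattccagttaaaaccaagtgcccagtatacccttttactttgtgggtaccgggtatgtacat
CG9663, chr2L:3302084-3302284: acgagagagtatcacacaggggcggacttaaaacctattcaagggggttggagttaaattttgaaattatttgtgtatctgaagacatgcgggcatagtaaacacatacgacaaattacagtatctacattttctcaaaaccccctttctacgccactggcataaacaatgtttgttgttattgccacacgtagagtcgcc
CG3726, chrX:5918814-5919014: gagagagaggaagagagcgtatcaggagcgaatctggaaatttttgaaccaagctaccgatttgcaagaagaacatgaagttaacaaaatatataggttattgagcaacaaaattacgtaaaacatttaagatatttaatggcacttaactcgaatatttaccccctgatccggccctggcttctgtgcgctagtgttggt
norpA, chrX:4324888-4325088: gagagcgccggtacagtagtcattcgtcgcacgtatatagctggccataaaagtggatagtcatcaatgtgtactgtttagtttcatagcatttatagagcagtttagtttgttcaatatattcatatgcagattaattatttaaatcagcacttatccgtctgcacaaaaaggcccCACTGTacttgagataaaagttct
Trl, chr3L:14759410-14759610: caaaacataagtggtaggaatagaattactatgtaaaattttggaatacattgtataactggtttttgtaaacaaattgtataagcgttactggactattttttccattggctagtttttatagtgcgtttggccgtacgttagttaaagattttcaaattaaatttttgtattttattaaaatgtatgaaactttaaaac
CG9837, chr3R:8811583-8811783: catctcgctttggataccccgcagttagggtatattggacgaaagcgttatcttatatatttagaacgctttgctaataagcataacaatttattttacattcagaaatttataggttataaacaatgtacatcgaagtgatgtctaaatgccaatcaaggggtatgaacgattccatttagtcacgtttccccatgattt
MYPT-75D, chr3L:18640610-18640810: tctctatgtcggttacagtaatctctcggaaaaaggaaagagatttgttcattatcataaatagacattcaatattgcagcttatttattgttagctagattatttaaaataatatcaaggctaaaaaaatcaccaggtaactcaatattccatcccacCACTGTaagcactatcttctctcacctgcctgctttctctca

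A second set shows how that word was placed. These are 3 strong members that held it on both sides of the summit, on the plus strand to the left and on the minus strand, where it reads CACTGT, to the right. They were chosen after their sequences were seen.
NFAT, chrX:13640419-13640619: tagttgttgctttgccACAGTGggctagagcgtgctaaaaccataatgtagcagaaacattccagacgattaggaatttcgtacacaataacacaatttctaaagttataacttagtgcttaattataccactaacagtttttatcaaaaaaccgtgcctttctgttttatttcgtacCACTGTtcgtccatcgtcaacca
prage, chrX:1830655-1830855: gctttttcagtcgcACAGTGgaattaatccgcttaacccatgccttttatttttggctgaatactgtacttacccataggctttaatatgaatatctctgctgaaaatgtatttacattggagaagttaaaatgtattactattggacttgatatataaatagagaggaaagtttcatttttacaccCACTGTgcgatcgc
CG32767, chrX:5083682-5083882: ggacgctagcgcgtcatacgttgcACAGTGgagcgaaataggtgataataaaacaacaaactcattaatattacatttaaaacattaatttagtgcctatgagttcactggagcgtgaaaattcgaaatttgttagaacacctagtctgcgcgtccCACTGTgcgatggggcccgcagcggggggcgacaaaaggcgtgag

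The last set holds the strict X-box, the site by which RFX proteins are known, with capitals on the site and 15 bp on either side, as on the plus strand.
Pen, site at chr2L:10057469-10057480: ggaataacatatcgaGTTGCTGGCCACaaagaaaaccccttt
siz, site at chr3L:21049760-21049772: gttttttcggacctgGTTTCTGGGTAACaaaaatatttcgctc
Syp, site at chr3R:20791159-20791172: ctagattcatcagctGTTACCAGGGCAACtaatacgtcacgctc
cpo, site at chr3R:17932569-17932582: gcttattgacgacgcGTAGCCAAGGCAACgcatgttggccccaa

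Relative to the length of DNA open to them, intronic peaks near a start were denser than those deeper in introns and sparser than those at starts. The rule could be met over 11.4 Mb, 8.32% of the arms, which gave 114 peaks per Mb. TSS-proximal peaks, with a summit within 500 bp of a TSS, numbered 255 per Mb of such sequence, deep intronic peaks, over 2000 bp from a TSS, 41.9 per Mb, and all peaks 67.2 per Mb. Density fell with distance within the class as well, with 138 peaks per Mb up to 1000 bp, 105 from there to 1500 bp and 90.9 from there to 2000 bp. The median signal was 126, 114 and 110 in the same 3 bands. In the 50 bp just inside the near limit there were 70 members with a median signal of 144, and the 60 intronic summits in the 50 bp just outside it had a median of 121. At the far limit the 34 members just inside had a median of 106 and the 27 intronic summits just outside 111.

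**Figure D1:**
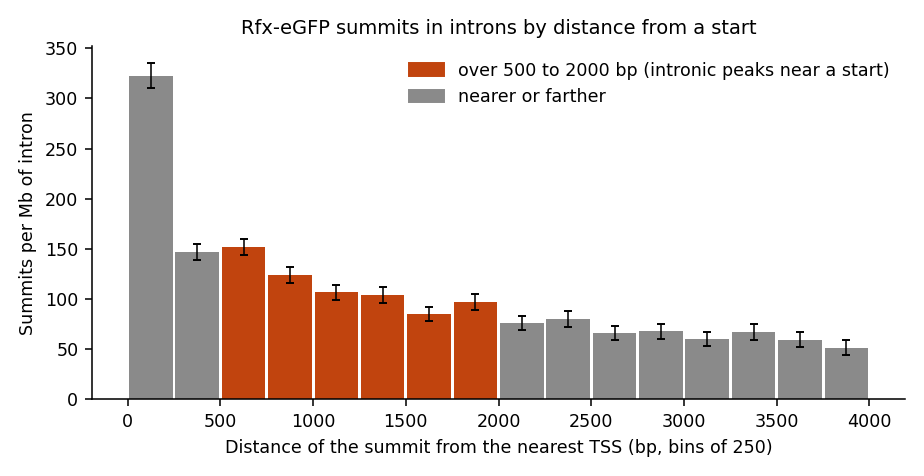
Summits per Mb of intron in bins of 250 bp of distance from the nearest TSS. Red bars are the bins of the intronic peaks near a start and grey bars lie nearer or farther; whiskers are the square root of the count over the length, a counting error only. Density is highest in the first bin, at 323 per Mb, and is 152 in the first red bin and 96.8 in the last one.

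Most members lay in the first intron of their host and belonged to a start of the host itself. The first intron held 1060 members (81.2%), the second 157 and later introns 88, against 58.1% in a first intron among deep intronic peaks. The median intron was 4851 bp long, against 14018 bp for deep intronic peaks, and 48 members lay within 100 bp of a splice site. Both contrasts with deep intronic peaks are partly built in, since the classes were divided by distance from a start. Where several transcripts held a member, a protein-coding host came first and then the lowest intron number, which favours first introns. The nearest TSS was one of the host in 1097 members (84.1%). The summit lay downstream of that start in 780 of these and upstream of it, hence between 2 starts of 1 gene, in 317. In the other 208 members the nearest start belonged to another gene, a protein-coding one in 104 and a non-coding gene or pseudogene in 104. Host genes were protein-coding for 1294 members.

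The promoter next to a member often had a peak of its own. A peak lay within 500 bp of the nearest TSS for 584 members (44.8%, 95% Wilson interval 42.1 to 47.5), against 41.6% of deep intronic peaks and 70% of all peaks, which include those that are themselves TSS-proximal. The difference between members and deep intronic peaks did not pass Fisher's exact test (two-sided, Benjamini-Hochberg adjusted p = 0.0834). It passed with members higher under 5 of 8 alternatives. When the near limit was 250 bp it turned to -2.07 percentage points, lower in members. The promoter peak then had to lie within 250 bp of the TSS too, so the measured share also changed. Where the nearest start was the host's own, 49.1% had a peak, against 21.6% where it belonged to another gene. Among the 584 pairs of a member and a promoter peak, the member had the higher signal in 269 (46.1%). In these pairs the median signal was 125 for members and 142 for promoter peaks.

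In signal the class stood between promoters and deeper introns. Signal is the authors' enrichment value per peak, and its scale is not stated in the labels or files. Members had a median of 118 (quartiles 81.2 and 214, range 2.69 to 4945.49), against 141 for TSS-proximal peaks and 104 for deep intronic peaks. Of members, 641 (49.1%) were above the median of all peaks, 119.5, where by construction 50% of all peaks are. The share was 57.5% in TSS-proximal peaks (difference of members -8.33 percentage points, Fisher's exact test, adjusted p = 4.87e-07) and 41.4% in deep intronic peaks (difference 7.71 points, adjusted p = 4.08e-05). With replicate 2's peaks alone the first difference shrank to -3.12 points (Fisher's exact test, adjusted p = 0.112). Peaks are not replicates of a condition, so these p-values describe the peaks of this set only. Summits that share an interval were also counted apart in the tests. At the top, 18 of the 100 strongest peaks were members, 70 were TSS-proximal and 3 deep intronic.

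**Figure D2:**
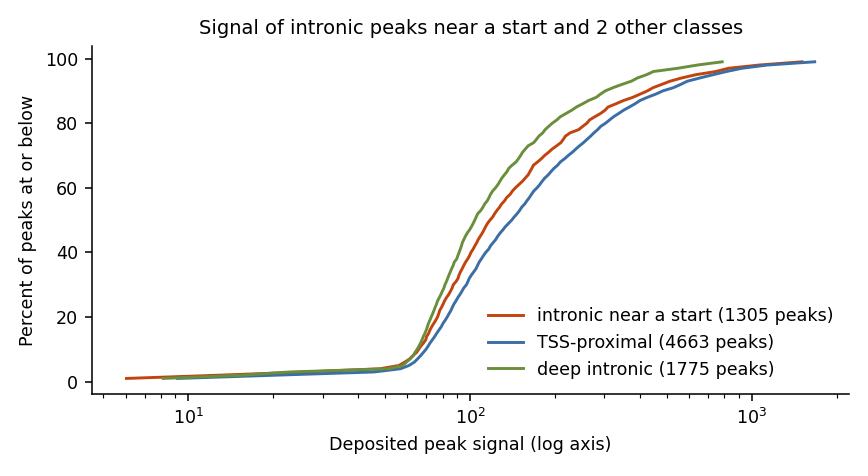
Percent of peaks at or below each signal, on a log axis, for 1305 intronic peaks near a start, 4663 TSS-proximal and 1775 deep intronic peaks. The curve of the intronic peaks near a start runs between the other two over most of its length, with medians of 118, 141 and 104.

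Agreement between the replicates followed the same order. A peak of replicate 1's own thresholded set overlapped 65.3% of members, against 65% of all peaks, and one of replicate 2's set 67.4%, against 67.9% of all peaks, a mean of 66.3% ± 1.46 (SD, n = 2). Both sets held 633 members (48.5%), against 49.6% of all peaks. The share was 56.5% for TSS-proximal peaks (difference of members -7.98 points, Fisher's exact test, adjusted p = 8.47e-07) and 41.6% for deep intronic peaks (difference 6.93 points, adjusted p = 0.00017). The conservative set held 73.2% of members and 72.5% of all peaks, and 1111 members (85.1%) and 85.1% of all peaks had the highest deposited score, 1000. In each set the share of members was thus close to the share of all peaks.

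Members found in both replicates were the strong ones. Their median signal was 215, against 96.5 for the 219 found in replicate 1 only, 94.4 for the 246 in replicate 2 only and 70.0 for the 207 in neither set. Of the 327 strongest members, with signals of 214 or more, 98.2% were in both sets, and of the 327 weakest, at 81.2 or less, 9.17%. This is partly built in, since each replicate's own set was itself thresholded. The order of the classes in agreement is therefore not independent of their order in signal. Base composition differed with strength and between the replicates. The 201 bp around the summit had a median G and C content of 35.3% in the 327 strongest members and 35.6% in the next 326. It was 40.3% in the next 325 and 42.3% in the 327 weakest, against 39.3% in 44446 peak-free windows of the same DNA. By set, it was 35.3% in members of both and 41.3% in those of neither. It was 36.8% in those of replicate 1 only and 42.3% in those of replicate 2 only, whose median signals were alike. Whether base composition had a part in the signal was not tested. Another tail was weak: 24 members (1.84%) had a signal under 10. So had 127 of all 9247 peaks and 1.35% of deep intronic peaks. The 24 were all 344 bp wide, which is also the median width of all peaks. Of these, 17 were in the conservative set, which held 72.5% of all peaks.

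To compare the replicates member by member, each member was given the signal of the strongest peak over its summit in a replicate's longer ranked list, expressed as a percentile among all peaks of the main set that had one. In 1164 members with a value in both, the median distance between the 2 percentiles was 11.1 points, and 546 lay within 10 points. More than 50 points separated 54 members, and 44 of these were higher in replicate 2. CycE, the cyclin of S-phase entry, held a member with signals of 116 in replicate 1 and 32.2 in replicate 2, at percentiles 70.5 and 11.3. An intron of sktl, a phosphatidylinositol phosphate kinase gene, was at percentile 62.8 in replicate 1 and 1.35 in replicate 2. The opposite pattern was found in tai, a coactivator of the ecdysone receptor, with 18.5 in replicate 1 and 180 in replicate 2, at percentiles 2.27 and 90.5. In mbc, needed for myoblast fusion, the values were 24.3 in replicate 1 and 123 in replicate 2. A motif share also differed between members in 1 replicate's own set only, a wider group than these 54. CACACACA, a dinucleotide repeat, lay within 100 bp of the summit in 14.6% of members found in replicate 2 only. It was in 6.85% of those in replicate 1 only, 5.21% of members of both sets and 5.42% of all peaks. CACACACA was 1 of 13 motifs searched, and the difference was not tested. TATAAA went the other way, at 21.1% in replicate 2 only and 30.6% in replicate 1 only.

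**Figure D3:**
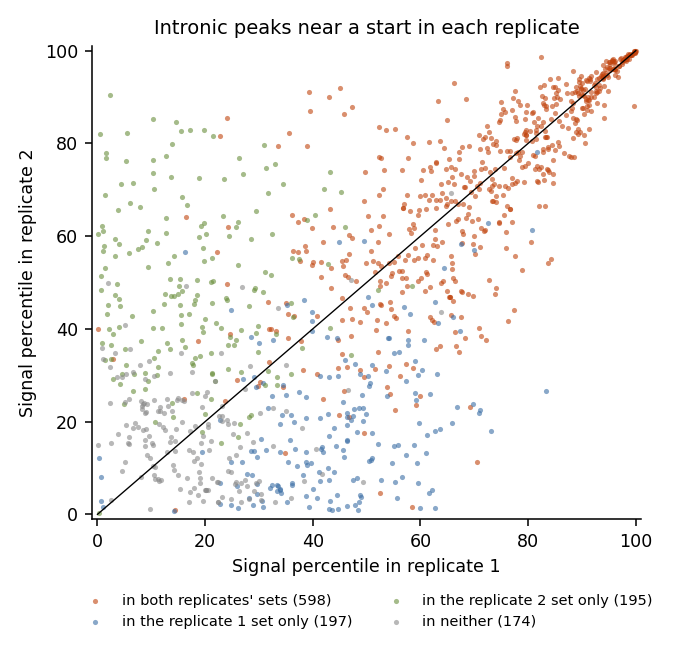
Each point is an intronic peak near a start with a signal in both replicates' ranked lists, placed by its signal percentile in replicate 1 and in replicate 2; colours give the replicates' own sets that hold it and the line marks equal percentiles. Points crowd the line at the highest percentiles, though some strong members such as the one in Rfx, at 82.3 and 98.5, lie off it. The upper left corner holds more points than the lower right, as 44 of the 54 members over 50 points apart were higher in replicate 2.

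The 12 strongest members that the conservative set also held came from hosts of varied function, and 4 of them lay on X. Their signals ran from 1517 to 4945, from 914 to 2951 in replicate 1 and from 564 to 1998 in replicate 2, and none was below percentile 98.98 in either replicate. The strongest lay in CG11050, 1029 bp downstream of its start, and ranked 3 among all 9247 peaks, with 2951 in replicate 1 and 1998 in replicate 2. That start had no peak of its own. The summit in CG11050 lay in an intron of 140 bp, 65 bp from a splice site, under a peak of 569 bp. CG32772 followed with 2137 in replicate 1 and 1348 in replicate 2, and ph-p, which encodes a Polycomb group protein, with 2008 and 1334 in the same order. Both had a peak at the nearest start too. Among the rest were Trl, which encodes the GAGA factor, with 1559 in replicate 1 and 835 in replicate 2, and norpA, the phospholipase C of fly phototransduction, with 1543 in replicate 1 and 1008 in replicate 2. KCNQ, a voltage-gated potassium channel gene, closed the 12 with 914 in replicate 1 and 564 in replicate 2, but the nearest start was that of mlt. The others lay in Adf1, CG9663, CG3726, HmgZ, CG9837 and MYPT-75D, with total signals of 1620 to 3240. Of the 12, 9 were in a first intron and 6 had a peak at the nearest start.

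Members were spread thinly over arms and hosts. Per Mb of DNA in which the rule could be met, there were 107 members on 2L, 118 on 2R, 115 on 3L, 116 on 3R and 119 on X. Chromosomes 4 and Y, with 0.129 and 0.0191 Mb of such DNA, held 0. Of 907 host genes, 653 held 1 member, 166 held 2, 54 held 3 and 34 held 4 or more. CG1677, a gene of 125 kb, held 8, with signals from 5.43 to 329, and 3 of these were in both replicates' sets. CHES-1-like, a forkhead transcription factor gene of 27.0 kb, held 7 with signals from 79.8 to 1379, of which 6 were in both sets. NFAT held 5 with signals from 95.1 to 1510. Others with many were CG42258, CG32264, SNF4Agamma and pnt with 6 each and Tlk with 5.

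Rfx itself was a host. A member in intron 3, at chr3R:10368469, 990 bp upstream of the nearest Rfx start, had a signal of 645.5, with 178.5 in replicate 1 and 472 in replicate 2, at percentiles 82.3 and 98.5. A second, 1979 bp downstream of a start, had a signal of 103. It had 49.3 in replicate 1 and no peak at its summit in the ranked list of replicate 2. This second summit lay in an intron of 79 bp, 5 bp from a splice site, and its peak reached beyond that intron. Both had an X-box arm within 100 bp of the summit, and neither start had a peak. The neighbouring gene cwo held no member.

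The X-box was rare in this class. The strict site was found no more than 100 bp from the summit in 8 members (0.613%, Wilson interval 0.311 to 1.21), against 0.858% of TSS-proximal peaks, 0.507% of deep intronic peaks, 0.757% of all peaks and 0.297% of peak-free windows. Neither difference between classes passed Fisher's exact test (adjusted p = 0.769 against TSS-proximal peaks and 0.951 against deep intronic peaks). Their signals ran from 76.8 to 294, with 1 of the 8 among the 327 strongest members and 3 in both replicates' sets. The strongest was in Pen, an importin alpha gene, 520 bp downstream of the start, with 181 in replicate 1 and 109 in replicate 2. Its site, shown above, lay 54 bp from the summit. Others were siz, a guanine nucleotide exchange factor gene with 74.3 in replicate 1 and 63.9 in replicate 2, Syp, an RNA-binding protein gene with 38.4 in replicate 1 and no value in replicate 2, and cpo, an RNA-binding protein gene of the peripheral nervous system, with 32.2 and 50.1. The remaining 4, whose sequences are not shown, lay in MESK2, in ASPP and at 2 summits in fdl. A single X-box arm, GTTGCC, was found in 9.66% of members, against 13.2% of all peaks and 10.3% of peak-free windows.

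Motifs known from promoters were scarcer in members than in TSS-proximal peaks. Of 13 motifs tested against TSS-proximal peaks, 5 were less frequent and 2 more frequent in members (Fisher's exact test, Benjamini-Hochberg adjusted over 26 tests). BEAF-32, an insulator protein site written CGATA, was in 20.5% of members, 41.5% of TSS-proximal peaks and 31% of all peaks (adjusted exact p = 4.77e-45). The DREF element of housekeeping promoters, TATCGATA, which contains CGATA, was in 3 members (0.230%), 9.14% of TSS-proximal peaks and 4.82% of all peaks (adjusted exact p = 1.19e-41). Motif 1, another housekeeping promoter element, was in 2 members (0.153%), 3.26% of TSS-proximal peaks and 1.71% of all peaks (adjusted exact p = 3.66e-13). The E-box CAGCTG was in 8.12% of members, 14.0% of TSS-proximal peaks and 11% of all peaks (adjusted exact p = 3.16e-08), and the X-box arm in 9.66% of members and 15.4% of TSS-proximal peaks (adjusted exact p = 3.26e-07). All 5 shares in TSS-proximal peaks were above those of peak-free windows, which were 20.9% for BEAF-32, 0.443% for DREF, 0.0337% for Motif 1 and 7.04% for the E-box.

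More frequent in members were the AP-1 site TGANTCA, bound by Jun and Fos, and CA repeats. The AP-1 site was in 6.28% of members, 3.73% of TSS-proximal peaks and 4.53% of all peaks (adjusted exact p = 0.000515), with 5.50% in peak-free windows. CACACACA was in 7.66% of members, 4.44% of TSS-proximal peaks and 5.42% of all peaks (adjusted exact p = 4.16e-05), with 5.15% in peak-free windows. Among the 327 strongest members these shares were 4.28% for AP-1 and 3.06% for CA repeats, and among the 327 weakest 7.65% for AP-1 and 8.87% for CA repeats. The other 6 motifs, among them the strict X-box and GAGAGAG, did not pass against TSS-proximal peaks. The insulator core AGNNGGCGC of CTCF was in 2.53% of members and 3.74% of all peaks. CAGGTAG, the site of the early activator Zelda, was in 1.07% of members and 1.04% of all peaks. The Grainyhead site ACNGGTT was in 5.90% of members and 6% of all peaks, and the TATA box TATAAA in 29.2% of members and 28% of all peaks.

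Against deep intronic peaks 1 of the 13 motifs differed. GAGAGAG was in 67 members (5.13%), 2.93% of deep intronic peaks and 4.82% of all peaks (adjusted exact p = 0.00759), with 3.20% in peak-free windows. It was in 3.38% of the intronic peaks near a start of replicate 1's own set and in 6.98% of those of replicate 2's set, a mean of 5.18% ± 2.55 (SD, n = 2). The call was lost with the conservative set, with scores of 1000 only, with gene 5′ ends as starts and with windows of 50 bp. Of the members with GAGAGAG, 56.7% had a peak at the nearest start, against 44.8% of all members.

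**Figure D4:**
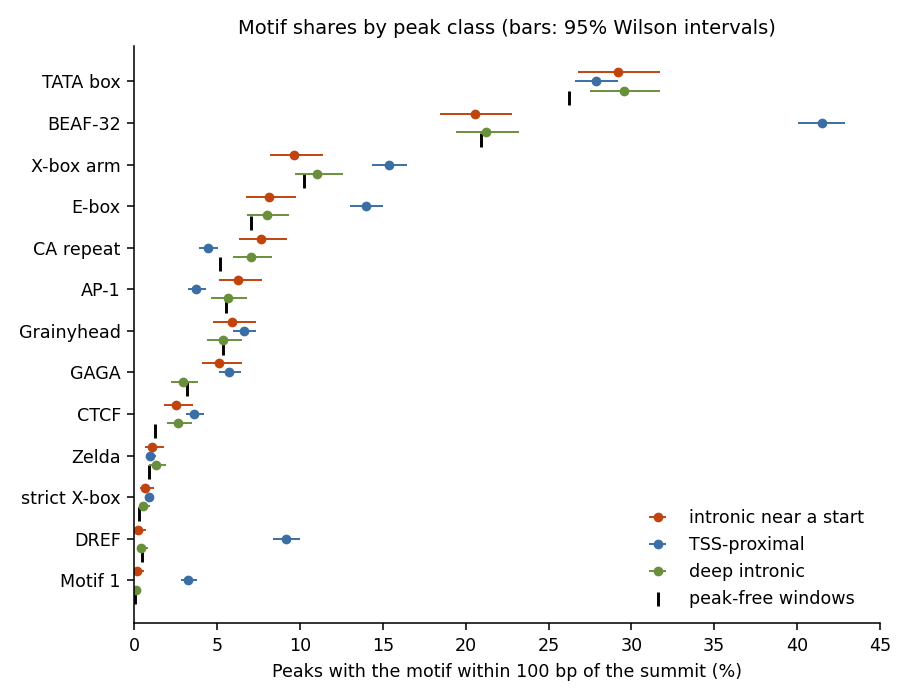
Share of peaks with each of 13 motifs within 100 bp of the summit, for intronic peaks near a start, TSS-proximal peaks and deep intronic peaks (points with 95% Wilson intervals), and for peak-free windows of the same length (ticks). TSS-proximal peaks stand apart at BEAF-32, with 20.5% in intronic peaks near a start and 41.5% at starts, while the 2 intronic classes lie together.

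The word ACAGTG, found by ranking and therefore given without a test, was placed in a regular way. Among the 1466 words of 6 bases present within 100 bp of the summit in at least 5% of members, it had the highest ratio of members to peak-free windows, 22.8% against 7.14%. It is none of the 13 motifs. It lay beside the summit and not at it. Counted 25 to 150 bp from the summit and reading towards it, that is on the plus strand to the left or on the minus strand to the right, it was in 267 members (20.5%, Wilson interval 18.4 to 22.7). Reading away from the summit in the same stretch, it was in 105 (8.05%, 6.69 to 9.65). In 26137 peak-free windows of 301 bp the shares were 4.72% towards the centre and 4.72% away from it. The matches that read towards the summit lay a median of 79.0 bp from it, with quartiles of 58.5 and 98.5 bp.

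Strength went with the placement. Of the 327 strongest members 31.2% held the word reading towards the summit, of the next 326 members 22.7%, of the next 325 members 16.3% and of the 327 weakest 11.6%, while the share reading away was between 7.06% and 8.92% in all 4. On both sides of the summit at once it was found in 45 members, 27 of them among the 327 strongest. That was 3.45% of members, against 4.06% of deep intronic peaks, 1.44% of TSS-proximal peaks, 2.41% of all peaks and 0.0689% of peak-free windows. The members of NFAT, prage and CG32767 are printed above. Their signals were 855 in replicate 1 and 648 in replicate 2 for NFAT, 714 in replicate 1 and 483 in replicate 2 for prage, and 588 in replicate 1 and 427 in replicate 2 for CG32767. Of the 9 strongest members printed, norpA and MYPT-75D held the word within 100 bp, each once, on the minus strand to the right of the summit. Of all 12 strongest, 3 held it, and of all members 22.8%.

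The placement was found in both replicates and in the other classes. In the intronic peaks near a start of replicate 1's own set 26.1% held the word reading towards the summit and 7.88% away from it, and in those of replicate 2's set 20.2% and 7.92%, a mean of 23.2% ± 4.18 towards and 7.90% ± 0.0239 away (SD, n = 2). Members found in replicate 1 only had it towards the summit in 23.3% and those in replicate 2 only in 11.4%. Among TSS-proximal peaks 12.4% held it towards and 7.18% away from the summit, among deep intronic peaks 15.8% and 7.55%, and among all peaks 14.1% and 7.16%. Read in its own direction, the base before the 322 placed matches was C or T in 38.2% and 41.0% of cases and the base after it G in 56.2%. Several other words with the same tilt overlapped it. TACAGT faced the summit in 15.1% of members and faced away in 5.29%, and CAGTGA in 9.12% and 3.91%. How the placement arose was not tested.

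**Figure D5:**
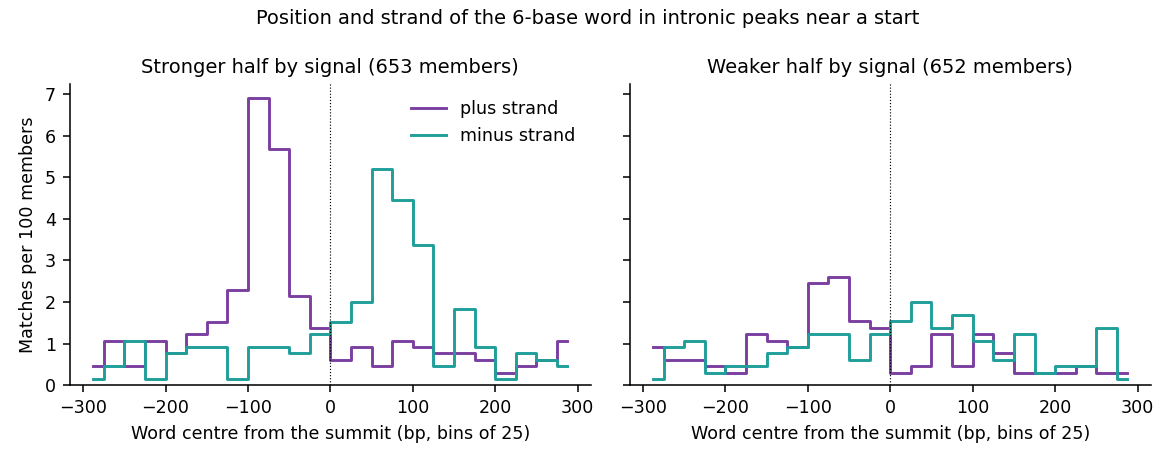
Matches of the 6-base word per 100 members, by distance of the word's centre from the summit in bins of 25 bp, on the plus strand (purple) and on the minus strand (teal), for the 653 stronger members by signal (left) and the 652 weaker ones (right). In the stronger members the plus strand peaks at 6.89 matches per 100 members 76 to 100 bp left of the summit and the minus strand at 5.21 about 50 to 74 bp right of it. In the weaker members the plus strand is highest at 2.61 matches per 100 members 51 to 75 bp left of the summit and the minus strand at 1.99 about 25 to 49 bp right of it.

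Which genes held a member followed how much intron they had near a start. Of 9015 protein-coding genes with at least some DNA open to the rule, 951 (10.5%) held a member. Here every gene around a summit was counted, while the 907 host genes above count 1 host per member. The share was 1.59% of genes with up to 1000 bp of such DNA and 20.6% from there to 3000 bp. It was 33.8% from there to 6000 bp and 52.7% above. Gene lists are therefore given with the number of members that their DNA open to the rule would hold. The rate used is that of all protein-coding genes, 109 members per Mb. The lists were chosen with results of these data known, and no test was made of them.

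Genes for building cilia, the known targets of RFX factors, held no member. Of 46 cilium assembly genes found in the annotation 41 had DNA open to the rule, and 0 held a member (Wilson interval 0 to 8.57%). Their median of such DNA was 0.214 kb, against 0.387 kb for all protein-coding genes. Among all protein-coding genes with up to 1000 bp of it, only 1.59% held a member. Together the 41 had 17.4 kb, where the overall rate gives 1.89 members. A count of 0 in so little DNA does not set the list apart from other genes. Of 8 eligible genes of sensory neuron determination 1 held members, Rfx itself with 2, where the rate gives 2.81. Segmentation genes held 0 of 17 eligible, where the overall rate gives 1.599 members, and Hox genes and cofactors 1 of 10 where it gives 4.20, with 2 members in Abd-B, a posterior Hox gene, the stronger of them at 132 in replicate 1 and 112 in replicate 2.

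The lists richest in members per Mb were Polycomb and trithorax group genes and glial genes. Of 26 eligible genes of the Polycomb and trithorax groups, which keep genes silent or active through development, 5 held 13 members where the overall rate gives 4.04. These included the members of ph-p and Trl described above and 1 in brm, the ATPase gene of the Brahma complex, which also lay within CG17029, with 129 in replicate 1 and 119 in replicate 2. Of 13 glial genes 4 held 10 members where the overall rate gives 3.53, but 6 of these were the members of pnt, which is also in the list of the EGF receptor pathway. A member in nrv2, a sodium pump subunit gene, had 114.5 in replicate 1 and 69.4 in replicate 2.

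Signalling and hormone pathways lay nearer to the overall rate than those lists, at 0.988 to 2.11 times it. EGF receptor and Ras pathway genes held members in 6 of 17 eligible genes, 13 members where 6.16 are given by the rate. Of these 13, 6 were again the members of pnt. The strongest of the list was in drk, an adaptor of receptor tyrosine kinases, with 356 in replicate 1 and 254 in replicate 2. Its nearest start was that of mars. The member in sty, an inhibitor of that pathway, had 279 in replicate 1 and 157 in replicate 2. In the BMP and activin pathway 5 of 16 genes held 11 members where 5.49 are given by the rate, led by wit, a type II receptor gene, with 456 in replicate 1 and 279 in replicate 2. Notch pathway genes held 8 members in 5 of 18 genes where the rate gives 5.34, with neur, the ubiquitin ligase of Notch ligands, at 202 in replicate 1 and 174 in replicate 2. Hedgehog pathway genes held 4 in 3 of 11 where it gives 2.13, and Wnt pathway genes 9 in 4 of 19 where it gives 6.86. Genes of the ecdysone response and nuclear receptors held 12 in 6 of 19 where the rate gives 12.1. The member in EcR, the ecdysone receptor gene, had 459 in replicate 1 and 245 in replicate 2. The start nearest to it was that of a tRNA gene, 1392 bp away, and not one of EcR.

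Neuronal RNA-binding protein genes had much intron near their starts, a median of 10.5 kb open to the rule against 0.387 kb for all protein-coding genes, and held members at about the overall rate. Of 17 neuronal RNA-binding protein genes 10 held 16 members, where the overall rate gives 18.5. The strongest was in mub, with 711 in replicate 1 and 426 in replicate 2, and elav, the marker gene of neurons, had 538 in replicate 1 and 452 in replicate 2 at 594 bp from its start. In brat, a translational repressor gene, the values were 415 in replicate 1 and 397 in replicate 2. Axon guidance and cell adhesion genes held 15 members in 8 of 37 genes where the rate gives 23.7, and ion channel genes 9 in 7 of 20 where it gives 9.58. Muscle genes held 7 members in 5 of 23 where the rate gives 7.93, hemocyte genes 6 in 3 of 14 where it gives 3.71, and circadian clock genes 7 in 3 of 11 where it gives 4.28. Tracheal and epithelial regulators held 6 in 4 of 16 where the rate gives 7.49, led by crb, the apical polarity gene, with 204 in replicate 1 and 194 in replicate 2.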

How the data were processed

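Chromatin immunoprecipitation sequencing peaks of 2 biological replicates of Rfx-eGFP embryos were analysed as 1 group. The authors scored peaks by the irreproducible discovery rate (IDR), per the labels and file names; the name and version of aligner or peak caller were not given in the sources used here. Signal as deposited by the authors, an enrichment value per peak of unstated scale, was compared between peaks of one list. The deposited score restates the IDR in whole numbers of at most 1000, with 830 as its lowest value here. The deposited summit offset, added to the peak's start, gave the summit. The main set, called by the authors from both replicates, held 9250 peaks, and the 3 off the arms were left out; the replicates' own sets held 6297 and 6953 and the conservative set 6978.

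Summits were classified against Ensembl release 115 (BDGP 6.54), of the same build as the files and the reference sequence. An overlap of 1 bp counted as shared. Motifs were searched without mismatch on both strands within 100 bp of the summit. Peak-free windows tiled the DNA open to the rule, in pieces of 201 or 301 bp outside all peaks. Shares were compared by two-sided Fisher's exact tests at 0.05, adjusted by Benjamini-Hochberg over 5 shares or 26 motif tests. Wilson intervals at 95% cover counting error only. Scripts ran under Python 3.11.15 (scipy 1.17.1, numpy 2.4.6, pandas 2.3.3, and matplotlib 3.10.9 for plots) and were tested on simulated data. Named were the 12 strongest members in the conservative set, those with a strict X-box, the 8 hosts with most members, up to 3 hosts per list, the 4 most discordant members each way, Rfx and cwo, of which the text gives the most telling; the word pairs were added after seeing the data. The members, the 20 gene lists and the rules were chosen with earlier results of these data known. Names matching no gene (Rpgrip1l, Dl, Star and dys) were left out. Some members and 1 gene list are not reported here. Alternatives were each replicate alone, the conservative set, scores of 1000 only, other definitions and limits of starts, overlap and motif windows.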

Additional observations from a re-analysis of the deposited data

How the results depend on the processing

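The count of 1305 fell to 694 when the near limit was 1000 bp and was 888 and 960 in the replicates' own sets; over all 8 alternatives it was 694 to 1642. The signal difference from TSS-proximal peaks lay between -9.46 and -3.12 points with either replicate left out and lost its call at -3.12, with peaks of replicate 2 only; its other alternatives kept direction and call. The signal difference from deep intronic peaks (4.41 to 9.25 points) and the differences in replicate overlap (-8.66 to -6.46 and 4.73 to 8.36 points) kept theirs under every alternative run. Between 6 and 8 of 13 motifs differed from TSS-proximal peaks, and 0 or 1 from deep intronic peaks: by Fisher's exact test 0 with the conservative set, with scores of 1000 only, with gene 5′ ends and with windows of 50 bp. The share of members whose nearest start has a peak, minus that of deep intronic peaks, passed at 8.20 points without replicate 2 (4.59, not passing, without replicate 1), 6.40 with the conservative set, 9.26 with gene 5′ ends, 4.98 with protein-coding starts and 5.49 with a near limit of 1000 bp, and reversed to -2.07 with 250 bp; the cause was not tested. With near limits of 1000 and 250 bp the promoter peak had to lie within that same distance, so the measured share changed too. The word reading towards the summit was in 20.2% to 26.1% of members, each time above the 7.74% to 8.53% reading away. The alternatives for the word were chosen after seeing the data. No paired analysis was possible because there is 1 group of samples. With 2 replicates, peaks and not samples are the units of every test; depth is unknown, and reads that map to several places cannot be judged from peak lists.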
